A study of Mus musculus with 2 samples.

Results

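A group of 9 genes that are known to be raised in blood stem cells of old mice was followed through single-cell RNA counts of young mouse marrow. The genes are Ehd3, Nupr1, Plscr2, Clu, Aldh1a1, Jam2, Gstm2, Mt1 and Mt2. All 9 were found by symbol among the 32285 genes counted. They were selected on their measured UMI levels by genotype and library, over all cells and in cells gated by marker RNA. Levels by genotype and by marker gene are therefore given below as a description with no test, while dividing cells and surface proteins, which played no part in the choice, are tested. No old animals were measured.

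The cells were LSK cells (low in lineage markers, positive for Sca-1 and high in Kit), the part of bone marrow in which stem cells and multipotent progenitors are found. They were sorted from femur and tibia of young wild-type (WT) mice and of young mice labelled as lacking IκB (IkBKO), after lysis of red cells and depletion of lineage-positive cells on beads. The sources used here name neither the IκB genes and alleles nor the number of mice in a sort. Both genotypes of a replicate were marked with tagged antibodies and run as 1 droplet library, so there are 2 libraries and 4 pools of cells. Replicate 1 gave 3721 WT and 3962 IkBKO cells that passed the deposited quality call, with 43674115 and 62834572 UMIs (distinct RNA molecules). Replicate 2 gave 4963 and 5383 cells with 42165571 and 61278938 UMIs.

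IkBKO cells were deeper in both libraries, with a median of 13709 UMIs per cell against 9963 in WT (replicate 1) and of 9641 against 6983 (replicate 2). The libraries shared 39 barcodes out of 7683 and 10346. The sort markers Kit and Ly6a together stood between 207 and 362 CPM (UMIs in 1000000 UMIs of a pool) in the 4 pools. Of the marker lists of other cells, the 6 mature neutrophil genes summed to 1374 and 1183 CPM in the WT pools and to 187 and 206 CPM in IkBKO pools, with none at 0. The 5 megakaryocyte genes went the other way, at 161 and 106 CPM in the WT pools and 208 and 303 CPM in IkBKO pools. The 6 monocyte and dendritic cell genes stood at 98.0 and 50.0 CPM in the WT pools and at 279 and 148 CPM in the IkBKO pools. The summed stem cell markers were at 339 and 721 CPM in the WT pools and 190 and 450 CPM in the IkBKO pools. The part these mixtures play in the levels below was not tested. Cells were not counted by these lists, so the sums do not tell fewer cells of a type from less RNA per cell.

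Stem cell ageing in mice is known for a shift towards platelet and myeloid output and for a set of genes whose RNA accumulates in old stem cells. The 9 genes work in different parts of the cell. Ehd3 encodes an EH-domain ATPase of endosomal recycling, Plscr2 a member of the phospholipid scramblase family and Jam2 a junctional adhesion molecule of the cell surface. Aldh1a1 oxidises retinaldehyde to retinoic acid, and Gstm2 couples glutathione to reactive compounds. Nupr1 is a small chromatin-associated protein induced by stress, and Clu (clusterin) is a secreted chaperone. Mt1 and Mt2 are metallothioneins, small cysteine-rich proteins that bind zinc and copper and are switched on by the metal-sensing factor MTF1 through metal response elements. NF-κB, which IκB proteins hold back in the cytoplasm, binds sites that begin with G and end with C bases around a variable core.

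On mm10 (GRCm38) Ehd3 lies on chromosome 17 (73804134 to 73832094), Nupr1 on chromosome 7 (126623249 to 126630861), Plscr2 on chromosome 9 (92275602 to 92297752) and Clu on chromosome 14 (65968483 to 65981547). Aldh1a1 is on chromosome 19 (20492715 to 20643465), Jam2 on chromosome 16 (84774123 to 84825928) and Gstm2 on chromosome 3 (107981702 to 107986453). Mt2 (94172664 to 94173568) and Mt1 (94179082 to 94180327) are neighbours on chromosome 8, with 5513 bases between them. All are protein coding. Gm45774 overlaps Mt2 on the other strand, as C730002L08Rik and Gm6684 overlap Aldh1a1. Gm25908 lies within Jam2 on the same strand. The sources used here do not say whether counting used the strand. Within the last 500 bases of the transcripts, 2.44% of the 90-base words of Gstm2 also occur in Gm12499 and 0.727% of those of Aldh1a1 in Aldh1a7, whereas none of the other 7 genes shared a word.

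Promoters are printed for the metallothionein pair, since most cells with an Mt2 UMI also had one of Mt1, and for Ehd3, the member with the largest difference between genotypes. Each is the 250 bases before the start site in the RefSeq table of GRCm38.p6, which held 6 of the 9 genes. Capitals mark the core of the metal response element, TGCNCNC on either strand, in the metallothioneins, and the NF-κB form GGGNNNNNCC in Ehd3.
Mt2, chr8:94172368-94172617, plus strand: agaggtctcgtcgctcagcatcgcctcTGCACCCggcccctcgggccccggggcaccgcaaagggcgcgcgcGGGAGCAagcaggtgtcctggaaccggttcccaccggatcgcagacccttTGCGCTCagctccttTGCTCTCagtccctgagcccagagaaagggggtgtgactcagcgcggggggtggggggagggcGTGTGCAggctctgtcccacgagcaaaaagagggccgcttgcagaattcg
Mt1, chr8:94178839-94179088, plus strand: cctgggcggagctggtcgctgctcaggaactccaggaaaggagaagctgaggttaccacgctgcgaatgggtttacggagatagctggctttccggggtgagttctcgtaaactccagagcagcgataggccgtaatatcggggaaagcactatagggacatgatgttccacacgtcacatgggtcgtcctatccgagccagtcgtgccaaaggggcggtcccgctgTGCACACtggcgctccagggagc
Ehd3, chr17:73804591-73804840, plus strand: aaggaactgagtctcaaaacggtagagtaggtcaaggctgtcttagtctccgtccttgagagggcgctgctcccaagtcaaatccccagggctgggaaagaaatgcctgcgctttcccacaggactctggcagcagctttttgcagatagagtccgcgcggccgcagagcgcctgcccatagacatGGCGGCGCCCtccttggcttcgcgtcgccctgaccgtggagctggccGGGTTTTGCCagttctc

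The Mt2 window holds 5 matches to the metal response core, 3 of them on the gene's strand, and the Mt1 window holds 1. Of 32851 windows of the same length 44.4% held at least 1 match and 0.344% at least 5. Other annotated Mt1 transcripts start further downstream (94179211 and 94179241), and the bases just before those starts lie outside the window. The NF-κB form has 2 matches in the Ehd3 window, 3 in that of Mt1 and 5 in that of Nupr1, where matches overlap one another in part, and 0 in those of Mt2, Gstm2 and Aldh1a1. Of all windows 45.8% hold it at least once and 4.07% at least 5 times. The antioxidant response core TGACNNNGC matched once in the Mt2 window and in 10.2% of all windows. These matches describe the letters and not binding.

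Over all LSK cells Ehd3 had the largest genotype difference of the 9 by the fitted fold change. In replicates 1 and 2 its level was 2.50 and 2.21 CPM in the WT pools and 14.8 and 16.1 CPM in the IkBKO pools, a fitted log2 fold change of 2.80. Plscr2 was at 0.435 and 0.569 CPM in the WT pools and 1.46 and 2.02 CPM in the IkBKO pools (log2 1.88). Both genes were thus higher in each IkBKO pool than in either WT pool. Jam2, the remaining membrane gene, went down, from 1.19 and 1.83 CPM to 0.382 and 0.979 CPM (log2 −1.14).

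The enzyme genes also stood higher in IkBKO cells. Aldh1a1 was at 2.56 and 3.06 CPM in the WT pools and 5.25 and 6.89 CPM in the IkBKO pools (log2 1.19). Gstm2 was at 0.824 and 0.688 CPM in the WT pools and 1.13 and 1.22 CPM in the IkBKO pools (log2 0.73). Of the stress genes, Nupr1 moved by about the same amount in each library. It was at 2.56 CPM in both WT pools, and at 5.78 and 5.86 CPM in the IkBKO pools (log2 1.27). Clu was at 3.78 and 2.89 CPM in the WT pools and at 4.3 and 4.29 CPM in the IkBKO pools (log2 0.47). When every cell was thinned to 5000 UMIs its fitted log2 fold change was −0.07, and the cause of this turn was not tested.

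In the WT pools the levels of the metallothioneins differed between libraries more than those of the other members. Mt1 was at 60.3 CPM (WT) and 239 CPM (IkBKO) in replicate 1, against 12.5 and 72.2 CPM in replicate 2, so that WT cells of replicate 1 came close to IkBKO cells of replicate 2. Mt2 was at 8.31 and 17.2 CPM in replicate 1 and at 1.42 and 15.9 CPM in replicate 2. Its ratio of IkBKO over WT was 2.07 (95% interval 1.84 to 2.34) in the first library and 11.2 (8.60 to 14.8) in the second. These exact binomial intervals cover counting error only.

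**Figure D1:**
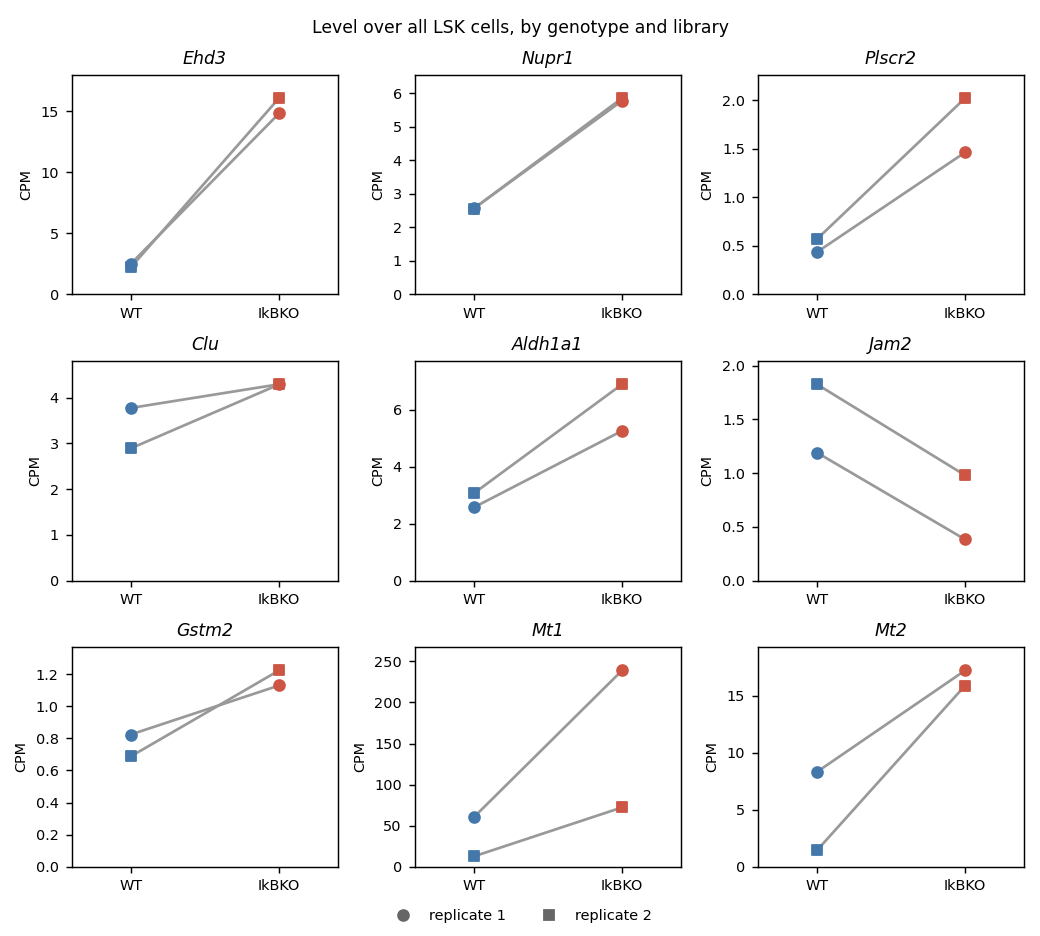
Level in CPM (y axis, from 0) of the 9 genes over all LSK cells of each pool, by genotype (x axis), with circles for replicate 1, squares for replicate 2 and lines joining the pools of 1 library. Jam2 falls from WT to IkBKO in both libraries (1.19 to 0.382 CPM and 1.83 to 0.979 CPM), and the other 8 rise in both.

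All 9 genes passed the filter on low counts. Of them 6, namely Ehd3, Nupr1, Plscr2, Aldh1a1, Mt1 and Mt2, were at least 2-fold higher in IkBKO cells of both libraries, and 0 were at least 2-fold lower in both. The background over the 14742 genes tested was 2.08% and 2.9%, and nothing is read from this comparison, since the contrast chose the genes. Without cells that carry at least 5 UMIs of the markers of 6 other lineages, the fitted log2 fold changes were 2.89 for Plscr2, 3.02 for Mt1, 1.88 for Aldh1a1, 1.73 for Nupr1, 3.13 for Ehd3, 3.23 for Mt2 (2.15 with these cells) and 0.06 for Clu. Across all genes 7.13% were called higher and 6.19% lower by edgeR at an adjusted p of at most 0.05. The fitted log2 fold changes of the 9 had a median of 1.27, beside −0.01 over all genes.

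Depth set part of how often the RNA was seen. After thinning each cell to 5000 UMIs, which left out 188, 102, 956 and 503 shallower cells (WT and IkBKO of replicate 1, then of replicate 2), Ehd3 had a UMI in 1.42% of WT and 7.62% of IkBKO cells (replicate 1) and in 1.05% and 7.07% (replicate 2). Aldh1a1 went from 1.33% to 3.01% and from 1.22% to 3.11%. Jam2 went from 0.764% to 0.337% and from 0.898% to 0.574%. The direction in thinned cells was the same as in CPM for these 3 genes. Unthinned, Ehd3 was seen in 80 of 3721 WT and 641 of 3962 IkBKO cells (replicate 1) and in 85 of 4963 and 701 of 5383 cells (replicate 2).

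Cells were next gated by RNA of genes that mark kinds of LSK cell. The gates were Mecom, a stem cell transcription factor (at least 1 UMI), Dntt, the terminal transferase of early lymphoid cells (at least 3), Mpo, the myeloperoxidase of granulocyte and monocyte precursors (at least 20), and Pf4, a platelet chemokine (at least 3). In the order WT and IkBKO of replicate 1, then WT and IkBKO of replicate 2, the Mecom gate held 1106, 738, 1761 and 1714 cells. The Dntt gate held 748, 264, 962 and 527, and the Pf4 gate 113, 264, 196 and 586. The Mpo gate held 339 and 1473 cells in replicate 1 but only 40 WT cells beside 510 IkBKO cells in replicate 2. Between 8.44% and 16.2% of gated cells were in more than 1 gate. The gates are set on raw UMIs, so deeper cells pass them more readily, and IkBKO cells were deeper. The part of depth in the gate sizes was not tested.

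Ehd3 was most abundant in the Pf4 gate in every pool. Its level there was 40.5 and 8.50 CPM in the WT pools and 80.4 and 47.5 CPM in the IkBKO pools, so the WT pools of this gate were far apart. In the Mecom gate Ehd3 stood at 2.90 and 2.87 CPM in the WT pools and at 18.5 and 15.8 CPM in the IkBKO pools, a mean log2 ratio of 2.57 ± 0.15 (SD, n = 2 libraries). Lymphoid-primed cells of the Dntt gate had a gap as well, with 0.677 and 1.42 CPM in the WT pools and 18.5 and 12.8 CPM in the IkBKO pools. The ratio there was 27.3 (95% interval 11.9 to 77.0) in replicate 1 and 9.0 (5.11 to 17.1) in replicate 2.

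In the Mpo gate Ehd3 was close to the floor in WT cells. There was 1 UMI in replicate 1 and none in replicate 2, against 159 and 85 UMIs (4.54 and 7.91 CPM) in IkBKO cells. With 0 of its UMIs in replicate 2, where 3 would be the limit, the IkBKO level was at least 2.34-fold higher, and in replicate 1 the ratio was 35.1 with an interval from 6.20 to 1393. Cells in none of the gates held Ehd3 at 1.43 and 2.06 CPM in the WT pools and 22.3 and 12.8 CPM in the IkBKO pools. IkBKO exceeded WT in every gate and in the ungated cells of both libraries.

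The other members fell into kinds by where their RNA lay. Aldh1a1 was nearly limited to Mecom, Pf4 and ungated cells. In the Pf4 gate it stood at 13.3 and 8.98 CPM in the WT pools and 27.3 and 18.4 CPM in the IkBKO pools, ratios of 2.06 (1.25 to 3.56) and 2.05 (1.27 to 3.51). In the Mecom gate it was at 3.92 and 4.81 CPM in the WT pools and 7.98 and 8.46 CPM in the IkBKO pools. In the Dntt and Mpo gates no pool had more than 10 of its UMIs and its level was at most 1.13 CPM. No ratio is given on so few UMIs.

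Nupr1, too, was highest in the Pf4 gate, at 12.6 and 7.56 CPM in the WT pools and 15.9 and 12.8 CPM in the IkBKO pools. The interval of the ratio there reached from 0.733 to 2.29 in replicate 1 and from 0.992 to 3.08 in replicate 2, and so held 1 in both. In Mecom cells it was at 3.30 and 4.25 CPM in the WT pools and 8.61 and 7.48 CPM in the IkBKO pools, a mean log2 ratio of 1.10 ± 0.40 (SD, n = 2). In the Dntt gate it stayed between 0.136 and 0.405 CPM.

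Plscr2 was a gene of Mecom, Pf4 and ungated cells as well. Its Mecom level was 0.785 and 0.874 CPM in the WT pools and 4.20 and 3.32 CPM in the IkBKO pools, a mean log2 ratio of 2.17 ± 0.35 (SD, n = 2). In the Pf4 gate WT cells held 0 and 2 UMIs and IkBKO cells 15 and 39, so in replicate 1 the level was at least 2.03-fold higher. The Mpo gate held at most 3 of its UMIs in any pool and no fold is given there.

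Jam2 stood lower in IkBKO cells in the gates where it was seen best. In the Mecom gate it was at 1.96 and 2.75 CPM in the WT pools and 0.735 and 1.45 CPM in the IkBKO pools, ratios of 0.375 (0.137 to 0.892) and 0.529 (0.317 to 0.869). In the Pf4 gate the ratios of 0.407 and 0.904 both had intervals that held 1. In Pf4 cells of no other gate they were 0.521 and 2.72 on 1 to 11 UMIs a pool, a mean log2 ratio of 0.25 in place of −0.72, and both intervals again held 1. Gstm2, like Nupr1, was highest in the Pf4 gate, with 5.58 and 2.36 CPM in the WT pools and 5.68 and 4.40 CPM in the IkBKO pools, and it was at most 1.58 CPM in every other gate.

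Clu had a high level in the lymphoid gate, where most members were low. In the Dntt gate it was at 9.37 and 7.6 CPM in the WT pools and at 7.24 and 14.0 CPM in the IkBKO pools, so the genotypes went opposite ways in the libraries. That was its highest gate in replicate 2, whereas in replicate 1 the Pf4 gate was slightly higher, with WT cells at 9.77 CPM and IkBKO cells at 9.94 CPM. In the Mecom gate Clu was at 1.73 and 4.62 CPM (WT and IkBKO) in replicate 1 and at 2.19 and 2.18 CPM in replicate 2, a mean log2 ratio of 0.71 ± 1.01 (SD, n = 2) that lies within the spread of the libraries.

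**Figure D2:**
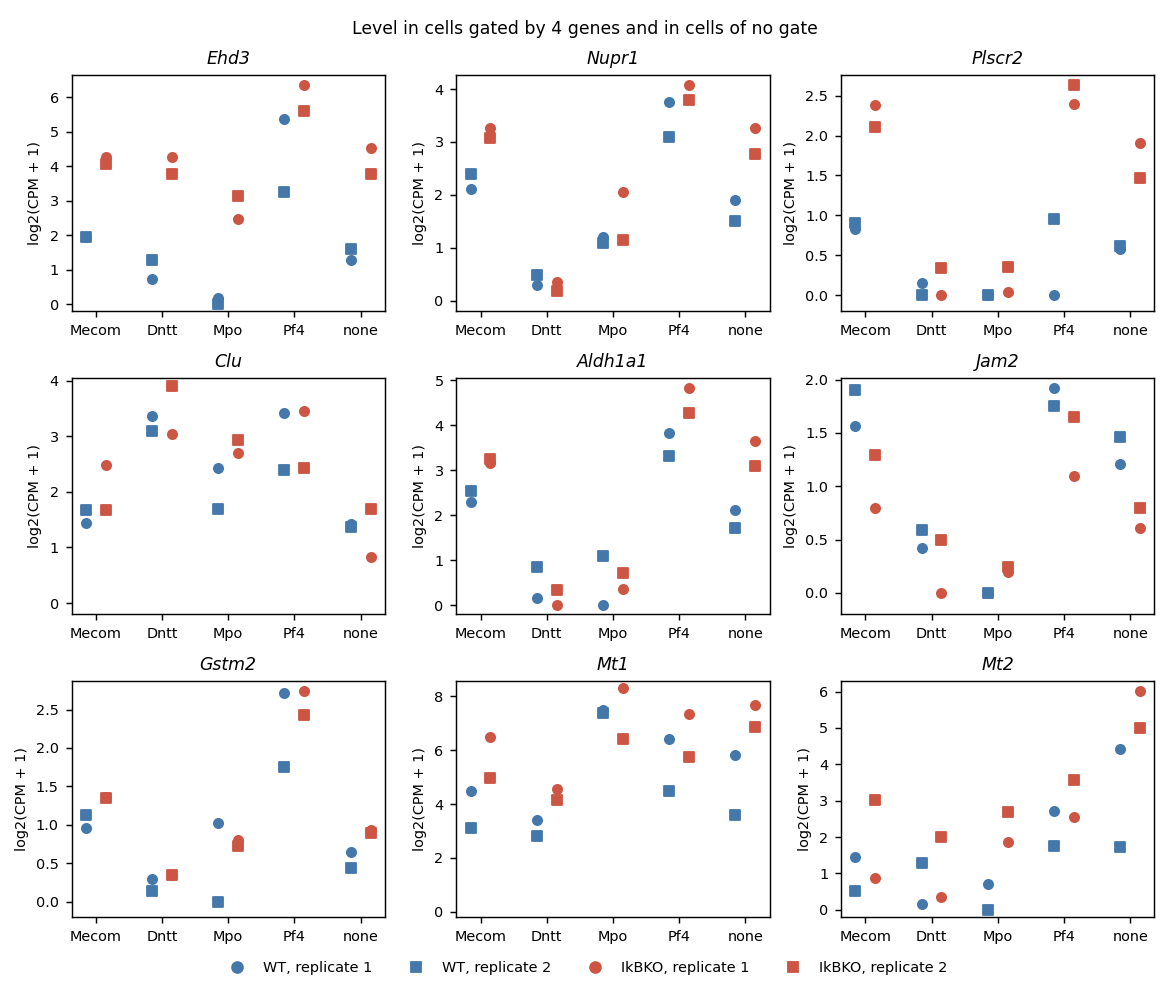
Level as log2(CPM + 1) on the y axis in cells of the Mecom, Dntt, Mpo and Pf4 gates and in cells of no gate (x axis), for WT (blue) and IkBKO (red) pools of replicate 1 (circles) and replicate 2 (squares). Ehd3 is higher in IkBKO cells of every set, Aldh1a1, Nupr1 and Plscr2 lie below 1 on this scale in the Dntt gate, where Clu is high (7.24 to 14.0 CPM). Points at 0 are pools with no UMI.

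Cells just at the gates' edges were compared over both libraries together. Ehd3 stood at 4.81 CPM in the WT pools and 13.9 CPM in the IkBKO pools with 2 Pf4 UMIs, just outside the gate, and at 8.29 and 25.01 CPM in those with 3, just inside it. With 2 Dntt UMIs it was at 0.535 and 9.77 CPM and with 3 at 0.392 and 10.1 CPM. Between 15 and 19 Mpo UMIs it was at 0 and 7.33 CPM, and between 20 and 24 at 0.863 and 8.50 CPM. Without Mecom UMIs it was at 2.08 and 15.03 CPM, and with 1 at 2.75 and 17.0 CPM. IkBKO cells stood above WT cells in Ehd3 on both sides of each edge. This is a description only, since levels by genotype chose the gene. The WT levels rest on 2 and 1 Ehd3 UMIs outside and inside the Dntt edge, and on 0 and 1 at the Mpo edge.

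A stricter Mecom gate of at least 3 UMIs, with 128, 78, 187 and 216 cells, gave a smaller gap in Ehd3. It was at 5.78 and 5.47 CPM in the WT pools and at 8.71 and 12.3 CPM in the IkBKO pools, ratios of 1.51 (0.517 to 4.24) and 2.25 (1.11 to 4.84) that rest on 8 to 29 UMIs a pool. Nupr1 went from 5.20 to 14.2 CPM in replicate 1 and from 3.64 to 20.3 CPM in replicate 2, ratios of 2.72 (1.08 to 7.22) and 5.58 (2.62 to 13.7). Nupr1 was thus at least 2-fold higher in IkBKO cells of both libraries in this gate. With 1 Mecom UMI or more Ehd3, Plscr2 and Mt1 met this rule, and Nupr1 did not. The share of all genes that meet it in either gate was not counted. These levels also chose the genes, so nothing is read from the change.

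In all 4 pools Mt1 was highest, of the 4 gates, in Mpo cells and lowest in Dntt cells. In the Mpo gate it was at 179 and 168 CPM in the WT pools and at 318 and 84.5 CPM in the IkBKO pools, so that the direction differed between libraries (ratios 1.78, interval 1.68 to 1.88, and 0.503, interval 0.423 to 0.603). The 40 WT cells of that gate in replicate 2 held 149 UMIs of Mt1. In the Mecom gate Mt1 was at 21.5 and 7.62 CPM in the WT pools and at 89.2 and 30.7 CPM in the IkBKO pools, ratios of 4.15 and 4.03. In Mecom cells of no other gate, which held 174 of the 849 Mt1 UMIs of the gate in IkBKO cells of replicate 1, the ratios were 1.92 (1.54 to 2.40) and 3.57 (2.86 to 4.50). With at least 3 Mecom UMIs they were 3.77 (2.15 to 6.81) and 1.06 (0.623 to 1.81), so the likeness of the libraries did not extend to these cells.

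Mt2 lay mostly outside the gates. Ungated cells held it at 20.5 and 2.29 CPM in the WT pools and at 63.1 and 31.1 CPM in the IkBKO pools, while the Mecom gate held 1.73 and 0.437 CPM in the WT pools and 0.840 and 7.11 CPM in the IkBKO pools. Few cells carried it. It was seen in 36 WT and 175 IkBKO cells (replicate 1) and in 14 and 128 cells (replicate 2). The 10 cells with most of it held 73.8% and 37.6% of its UMIs in replicate 1 and 93.3% and 31.1% in replicate 2.

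These cells were rich in Car1, the carbonic anhydrase of early erythroid cells, which by the rule for likeness was the gene closest to Mt2 (below). A set of cells with at least 10 Car1 UMIs was therefore added after this had been seen. It took in 45 WT and 174 IkBKO cells (replicate 1) and 7 and 188 (replicate 2), which is 1.21%, 4.39%, 0.141% and 3.49% of the cells. In these pools 92.3%, 87.2%, 81.7% and 91.3% of all Mt2 UMIs lay in the set. Klf1, the erythroid transcription factor, was at 145 to 280 CPM in the set and at 1.00 to 4.56 CPM in the rest. Of the cells with at least 5 Mt2 UMIs, 17 of 19, 47 of 50, 5 of 5 and 58 of 61 were in it.

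Within the Car1-rich cells the metallothioneins were high in both genotypes. Mt2 was at 369 and 291 CPM in the WT pools and 325 and 209 CPM in the IkBKO pools, a mean log2 ratio of −0.33 ± 0.21 (SD, n = 2). Its ratios of IkBKO over WT were 0.879 (95% interval 0.775 to 0.999) and 0.718 (0.539 to 0.978), the second on 49 Mt2 UMIs in WT cells. Mt2 was thus lower in IkBKO cells of this set in both libraries, unlike over all LSK cells. Mt1 was at 693 and 553 CPM in the WT pools and 801 and 642 CPM in the IkBKO pools (0.21 ± 0.0043). Its ratios were 1.15 (95% interval 1.06 to 1.26) and 1.16 (0.943 to 1.44), the second on 7 WT cells with 93 Mt1 UMIs. The SD is thus smaller than the counting error. In all other LSK cells Mt2 was at 0.655 and 0.262 CPM in the WT pools and 2.30 and 1.49 CPM in the IkBKO pools (2.16 ± 0.49). Mt1 stood there at 46.8 and 10.4 CPM in the WT pools and 212 and 29.8 CPM in the IkBKO pools (1.85 ± 0.46). The Car1-rich set held 23.9%, 15.5%, 17.6% and 61.6% of the Mt1 UMIs, so that in IkBKO cells of replicate 2 it was the larger share.

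Most cells with Mt2 also had Mt1, but few cells with Mt1 had Mt2. Among cells with an Mt2 UMI, Mt1 was also seen in 91.7%, 96.6%, 57.1% and 93.0%, against 16.1%, 48.6%, 3.92% and 13.1% of cells without one. In the other direction 33 of 626, 169 of 2008, 8 of 202 and 119 of 805 cells with an Mt1 UMI had one of Mt2. The Mpo gate held 52.4%, 74.0%, 28.2% and 20.5% of the Mt1 UMIs, beside 1.38%, 8.6%, 0% and 6.06% of those of Mt2. Of the other members, Aldh1a1 was also high in the Car1-rich cells. It was at 29.8 and 47.6 CPM in the WT pools and 28.9 and 23.1 CPM in the IkBKO pools, though the WT values rest on 27 and 8 UMIs. Ehd3 had no UMI there in either WT pool and 142 and 131 in the IkBKO pools, at least 14.8-fold and 1.73-fold higher against a limit of 3 UMIs per pool.

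**Figure D3:**
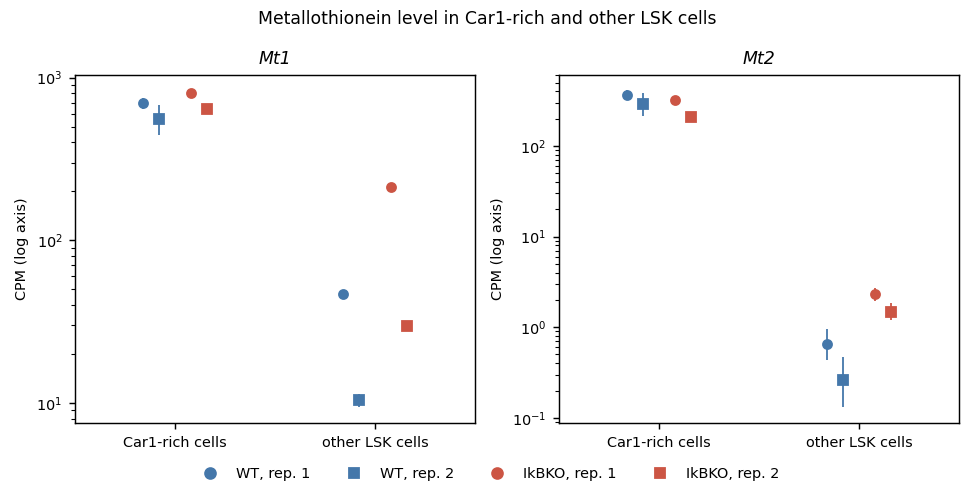
Level of Mt1 and Mt2 in CPM on a log axis in Car1-rich cells (at least 10 Car1 UMIs) and in the other LSK cells (x axis), by pool, with 95% Poisson intervals that cover counting error only. In Car1-rich cells Mt2 lies between 209 and 369 CPM in all 4 pools, while in other cells it is between 0.262 and 2.30 CPM.

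Surface protein was the first readout that the choice of genes did not use. Replicate 1 carried tagged antibodies against CD48, which is absent from the surface of most long-term stem cells, and against CD150, which marks them. The 25% of cells with the lowest and the 25% with the highest share of CD48 among antibody counts were pooled within each genotype, and the 4 pools were tested with genotype as a block. RNA of Cd48 itself was at 33.0 and 74.7 CPM in the low and 198 and 236 CPM in the high cells of WT and IkBKO (log2 high over low 2.24 ± 0.27 SE, edgeR adjusted p = 0.0186). Slamf1, which encodes CD150, fell (−3.75 ± 0.37, adjusted p = 0.00484).

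Of the 9 members 7 were lower in CD48-high cells and 0 higher, beside 9.7% lower and 8.47% higher (18.2% in all) of 12737 genes. Aldh1a1 differed most of the 9. It was at 10.1 and 22.0 CPM in the CD48-low cells of WT and IkBKO and at 0.208 and 0.0584 CPM in the CD48-high cells (log2 −6.74 ± 0.50 SE, edgeR adjusted p = 0.00274). The high pools held only 3 and 1 of its UMIs, beside 82 and 265 in the low pools.

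The genes of the cell's membranes were among those that fell. Plscr2 was at 1.59 and 4.99 CPM in CD48-low and 0.0693 and 0.234 CPM in CD48-high cells (−4.23 ± 0.48, edgeR adjusted p = 0.00677). Jam2 was at 3.92 and 0.997 CPM in the low cells and at 0.416 CPM and 0 in the high (−3.48 ± 0.65, adjusted p = 0.0215). As no UMI was left in the high IkBKO pool, the Jam2 fold depends on the prior count. Ehd3 was at 8.70 and 41.7 CPM in CD48-low and at 0.277 and 5.72 CPM in CD48-high cells (−3.11 ± 0.38, adjusted p = 0.0135). In Ehd3 the CD48-high IkBKO cells thus stood below the CD48-low WT cells.

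Nupr1 and Gstm2 moved less. Nupr1 was at 6.37 and 13.8 CPM in low and 1.25 and 2.75 CPM in high cells (−2.20 ± 0.25, edgeR adjusted p = 0.00681). Gstm2 was at 1.84 and 2.58 CPM in low and 0.555 and 0.350 CPM in high cells (−2.16 ± 0.47, adjusted p = 0.0324). Clu (0.25 ± 0.39, adjusted p = 0.688) and Mt1 (−0.40 ± 0.53, adjusted p = 0.663) did not pass.

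Mt2 passed, from 21.9 and 82.6 CPM in CD48-low to 1.18 and 1.46 CPM in CD48-high cells (−5.11 ± 0.36, edgeR adjusted p = 0.00538). The Car1-rich cells were picked after Car1 was found closest to Mt2, and they held most of its UMIs. Leaving them out therefore cannot show what this call rests on. They made up 0.859% and 13.5% of the CD48-low cells of WT and IkBKO and 0.537% and 0% of the CD48-high cells. Without them Mt2 was at 0.508 and 6.26 CPM in low and 0.905 and 1.46 CPM in high cells (−1.14 ± 0.67, adjusted p = 0.258). The other 6 calls held, with Aldh1a1 at −6.96 and Ehd3 at −3.04. In the outer 10% of cells on each side Ehd3 (−2.94) had an adjusted p = 0.0751, and by DESeq2 Gstm2 (−2.14) had an adjusted p = 0.311.

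CD48-low and CD48-high cells also differed in depth and kind. The median UMIs per cell were 7417 and 9512 in the low and 14068 and 16030 in the high cells. The Mecom gate took in 49.0% and 29.1% of the low and 17.2% and 14.0% of the high cells. For the Mpo gate the shares were 0.322% and 6.26% against 24.3% and 50.3%. The Pf4 gate took in 7.63% and 19.3% of the low and 0.107% and 0.505% of the high cells. Of the 4 gates it was the highest in Ehd3, Aldh1a1, Nupr1 and Gstm2. The part of these shares in the calls was not tested. Within the Mecom gate 4 members passed the filter on counts. Aldh1a1 (−5.97 ± 0.53), Nupr1 (−3.70 ± 0.42) and Ehd3 (−2.50 ± 0.33) were lower in CD48-high cells, beside 13.9% of genes there. Mt1 was higher (0.48 ± 0.16, edgeR adjusted p = 0.0154), beside 14.8%. These Mecom cells differed in kind as well (WT and IkBKO). The Mpo gate, where Mt1 was highest, took in 0% and 0.541% of the CD48-low and 9.75% and 35.7% of the CD48-high Mecom cells. The Pf4 gate, where Aldh1a1, Nupr1 and Ehd3 were highest, took in 6.14% and 12.97% of the CD48-low Mecom cells. Of the CD48-high Mecom cells it took in 0.361% and 1.62%. The part of the Mpo and Pf4 shares in the Mecom results was not tested.

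**Figure D4:**
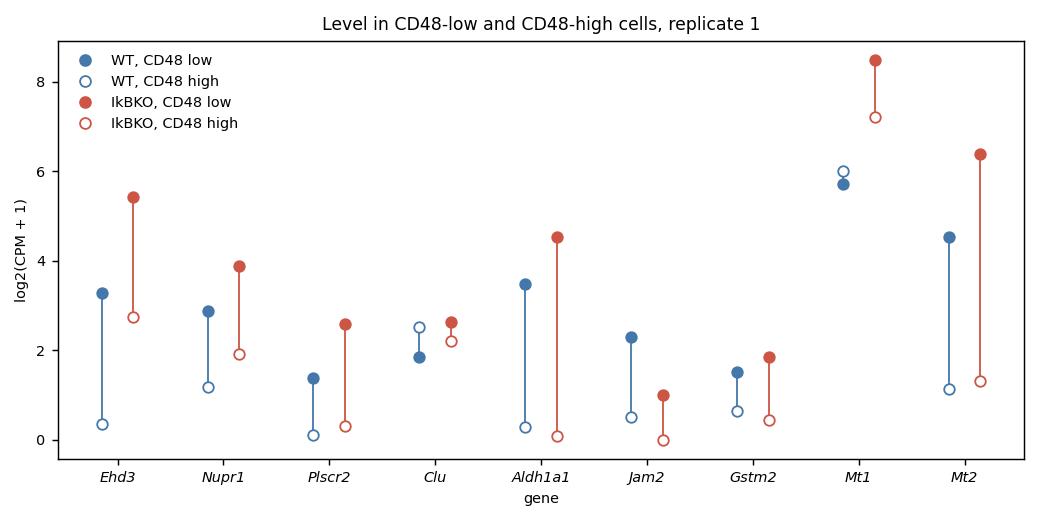
Level as log2(CPM + 1) on the y axis in CD48-low (filled) and CD48-high cells (open) of replicate 1 for each gene (x axis), in WT (blue) and IkBKO (red), with a line joining the pools of 1 genotype. Aldh1a1 drops from 10.1 and 22.0 CPM to at most 0.208 CPM, while Clu and Mt1 change in opposite directions in the genotypes.

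The antibody to CD150 gave the reverse order. Slamf1 RNA was higher in the 25% highest (2.96 ± 0.27, edgeR adjusted p = 1.52e-04). Of the 9 members 6 were higher in CD150-high cells and 0 lower, beside 7.23% higher and 10.3% lower of 12668 genes. Aldh1a1 went from 1.30 and 1.87 CPM in CD150-low cells of WT and IkBKO to 9.02 and 16.7 CPM in CD150-high cells (2.96 ± 0.23, edgeR adjusted p = 7.57e-05). Nupr1 went from 1.5 and 3.29 CPM to 6.10 and 13.7 CPM (2.00 ± 0.23) and Ehd3 from 1.11 and 10.3 CPM to 5.72 and 29.6 CPM (1.66 ± 0.21).

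The membrane genes Jam2 (2.43 ± 0.52) and Plscr2 (1.91 ± 0.46), and Gstm2 (1.76 ± 0.42), also rose with CD150. In each of the 6 both genotypes moved the same way. By DESeq2 Plscr2 (1.99) and Gstm2 (1.76) did not pass (adjusted p = 0.423 and 0.427), and Jam2 was given no adjusted p. Clu (−0.53 ± 0.27, edgeR adjusted p = 0.204), Mt1 (0.09 ± 0.27, adjusted p = 0.857) and Mt2 (0.93 ± 0.56, adjusted p = 0.423) did not pass. CD150-high cells were shallower too, with a median of 7394 and 9376 UMIs against 15470 and 17805. They also differed in kind (WT and IkBKO). The Pf4 gate took in 6.23% and 13.3% of the high and 0.967% and 2.62% of the low cells. The Mpo gate took in 3.65% and 15.7% against 17.4% and 46.1%, and the Car1-rich set 2.90% and 11.1% against 0.537% and 1.92%. Without Car1-rich cells 6 members were higher and 0 lower, beside 1038 and 1540 of 12604 genes. The part of the Pf4 and Mpo shares was not tested. The share of an antibody is set against the other antibodies of the same cell, so the CD48 and CD150 comparisons are not independent of each other. Both come from 1 library, and their p-values measure the spread between the genotypes of that library only.

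Cell division was the second such readout. Cells with at least 5 UMIs over 10 genes of mitosis, Mki67 and Top2a among them, were taken as cycling and those with at most 1 as non-cycling, which gave 8 pools. Of the 9 members 2 were higher and 2 lower in cycling cells, beside 27.1% and 28.7% (55.8% in all) of 13156 genes, a count that does not exceed the background.

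Both metallothioneins were higher in cycling cells. Mt1 went from 15.9 and 93.2 CPM in non-cycling WT and IkBKO cells to 107 and 298 CPM in cycling cells of replicate 1, and from 5.21 and 21.1 CPM to 23.4 and 106 CPM in replicate 2 (log2 2.35 ± 0.16 SE, edgeR adjusted p = 1.13e-04). Mt2 went from 0.300 and 4.79 CPM to 17.3 and 22.4 CPM and from 0.193 and 1.09 CPM to 3.43 and 26.5 CPM (3.87 ± 0.53, edgeR adjusted p = 0.00263). Both genes rose in 4 of 4 pairs of pools. Without replicate 2 the Mt2 difference did not pass (3.40, adjusted p = 0.291). Without Car1-rich cells Mt2 was at 1.39 ± 0.46 (adjusted p = 0.0368) and Mt1 at 2.03 ± 0.16 (adjusted p = 1.63e-04).

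Plscr2 and Jam2 were lower in cycling cells. Plscr2 went from 0.660 and 4.20 CPM in non-cycling WT and IkBKO cells to 0.299 and 0.740 CPM in cycling cells of replicate 1, and from 0.723 and 3.23 CPM to 0.572 and 1.34 CPM in replicate 2 (−1.38 ± 0.34, edgeR adjusted p = 0.0105). Jam2 went from 1.86 and 0.841 CPM to 0.697 and 0.254 CPM and from 2.31 and 1.42 CPM to 1.08 and 0.796 CPM (−1.08 ± 0.24, edgeR adjusted p = 0.0064). Both fell in 4 of 4 pairs.

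Ehd3 (−0.55 ± 0.22, edgeR adjusted p = 0.068), Nupr1 (−0.34 ± 0.18, adjusted p = 0.148) and Aldh1a1 (−0.06 ± 0.27, adjusted p = 0.863) did not pass, nor did Clu (0.64 ± 0.30, adjusted p = 0.108) and Gstm2 (0.49 ± 0.26, adjusted p = 0.141). Ehd3 passed without TMM (−0.69), by DESeq2 (−0.60) and without replicate 2 (−0.73). These classes too were set on raw UMIs, and cycling cells were deeper, with medians of 12913 to 20258 UMIs against 5971 to 8103. They also held more Mpo-gated cells, up to 59.3% in IkBKO cells of replicate 1 against 7.92% of the non-cycling ones.

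Within the Mecom gate 7 members passed the filter on counts. Mt1 (1.84 ± 0.12, edgeR adjusted p = 2.7e-12) and Clu (1.4 ± 0.31, adjusted p = 4.68e-04) were higher in cycling cells there, beside 25.2% of genes, and Plscr2 was lower (−0.99 ± 0.31, adjusted p = 0.00944), beside 25%. Clu thus passed in Mecom cells and not over all LSK cells, and the difference between the 2 fits was not tested. It was at 1.14, 1.79, 1.32 and 0.984 CPM in non-cycling and 2.38, 6.70, 2.26 and 3.03 CPM in cycling cells of the gate, in the order of pools used above. Cycling Mecom cells were more often in the Mpo gate, where Mt1 is highest, with 9.46%, 32.3%, 0.946% and 14.2% of them beside 0.16%, 3.95%, 0% and 0.356% of the non-cycling ones. They were also more often in the Dntt gate, where Clu is high, with 14.5%, 5.15%, 18.9% and 7.62% beside 7.84%, 1.22%, 6.68% and 1.3%. The part of these shares in the result was not tested.

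**Figure D5:**
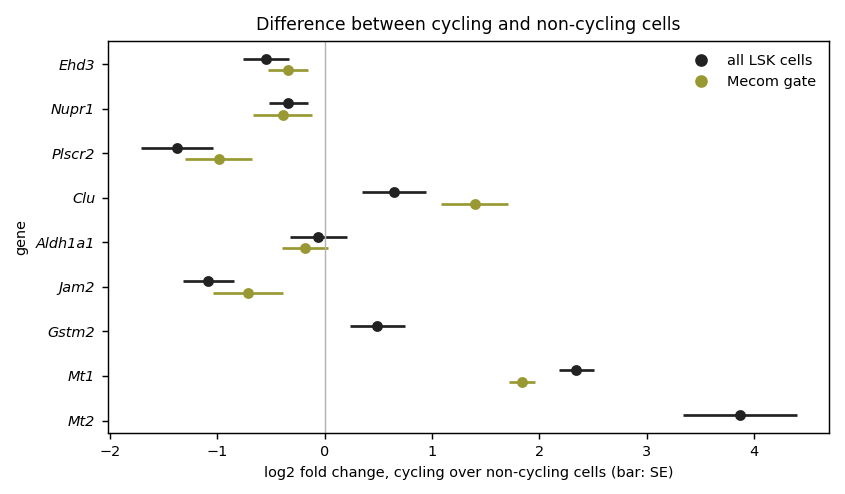
Log2 fold change of cycling over non-cycling cells (x axis, bars are SE) for the 9 genes (y axis), over all LSK cells (black) and within the Mecom gate (olive), where Gstm2 and Mt2 did not pass the filter on counts. Mt1 lies at 2.35 and 1.84, and Plscr2 at −1.38 and −0.99.

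Other genes of the same families and pathways were counted in the genotype comparison. Of 26 further genes known to be raised in old stem cells 22 were tested. Of these 1 was higher and 4 lower, beside 7.13% higher and 6.19% lower over all genes. The median log2 fold change was −0.42 beside −0.01 over all genes. Only called genes with at least 5 CPM in 1 genotype are named here. Selp, the P-selectin of platelets and megakaryocytes, rose from 13.2 and 4.55 CPM to 20.5 and 13.6 CPM (1.16 ± 0.23, edgeR adjusted p = 0.0482), but did not pass without TMM (adjusted p = 0.0874), with no filter (0.102) or without Car1-rich cells (0.0566). The adhesion molecule Alcam fell by 0.53 ± 0.08 on the log2 scale (26.6 and 47.4 CPM against 16.5 and 32.4 CPM, edgeR adjusted p = 0.015). The blood group gene Art4 fell by 0.70 ± 0.14 (6.55 and 8.94 CPM against 3.50 and 5.58 CPM, adjusted p = 0.0324), but was at −0.05 without cells that carry markers of other lineages and did not pass by DESeq2 (adjusted p = 0.11) or in thinned cells (0.118).

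Few relatives of the members passed. None of the 3 other EHD genes, of 3 genes of junctional adhesion or of 16 other glutathione S-transferases passed. Neither did any of 8 genes of the stress response in which Nupr1 takes part. The lowest edgeR adjusted p was 0.0551 among the transferases and 0.0559 among the stress genes, just over the threshold. Plscr1 rose among 3 scramblases (0.65 ± 0.08, edgeR adjusted p = 0.0085), and Aldh9a1 among 4 aldehyde dehydrogenases (0.36 ± 0.08, adjusted p = 0.037), though Aldh9a1 did not pass without the cells carrying other-lineage markers (0.21, adjusted p = 0.102), in thinned cells (0.0799), without TMM (0.0514) or by DESeq2 (0.0641). Of 11 genes of metal handling 0 rose and 2 fell, the zinc importers Slc39a14 (−0.69, edgeR adjusted p = 0.0342) and Slc39a10 (−0.41, adjusted p = 0.0356), and neither passed by DESeq2 (adjusted p = 0.124 and 0.0995). With 1 pool left out, which leaves 3 pools and no replicate block, none of the 7 genes named here and in the list of old stem cells passed in edgeR. In those fits Plscr1 stayed between 0.64 and 0.68 and Slc39a14 between −0.73 and −0.65, whereas Alcam reached from −0.96 to −0.12 and Selp from 0.42 to 2.09. The 8 lists had 3 to 22 genes tested each, beside 7.13% higher and 6.19% lower over all genes. The lists were not tested as sets, so no share of calls is read as particular to a list.

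Likeness was measured by Pearson's r of log2(CPM + 1) over 20 pools, made of the 4 gates and the ungated cells by genotype and library. These pools share libraries, depth and, in part, cells, so r is a description. Among the members Aldh1a1 and Nupr1 were most alike (0.94), followed by Gstm2 and Nupr1 (0.865), and Clu and Mt2 were least alike (−0.37). Outside the 9, Aldh1a1 was closest to Tgfbr3 (0.981) and Adgrl2 (0.965), Nupr1 to Gmpr (0.953) and Sord (0.942), and Gstm2 to Fermt3 (0.948) and Tuba8 (0.937). Jam2 was closest to Pja1 (0.939) and Pdzk1ip1 (0.936), and Ehd3 to H2-Q7 (0.904) and Serpina3g (0.878). Plscr2 was closest to Akr1b10 (0.857) and Casp12 (0.849), and Clu to Dgkd (0.866) and Parp1 (0.816). Mt1 was closest to Emilin2 (0.911) and Syngr2 (0.91), and Mt2 to Car1 (0.944) and Gm15915 (0.915).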

How the data were processed

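Cell Ranger 6.0.0 wrote the deposited matrices, per the file headers, and Cell Ranger 7.0, Seurat 4.3.0 and mm10 are named in the submitters' processing notes. The authors deposited raw UMI counts per gene and barcode from a 3′ droplet kit, and a table with a quality call and a genotype per cell, with no rule stated for either. Passing cells were used with no further filter and no doublet caller. Raw counts were summed per library and genotype or cell set. edgeR 4.0.16 (R 4.3.3; quasi-likelihood F test, robust, TMM, filterByExpr, Benjamini-Hochberg over all genes tested, two-sided, called at 0.05) was run with the library, or library and genotype, as a block, since these pools share a library. Deviations from the genotype means correlated at 0.686 between pools of the same library. With 4 pools 1 residual degree of freedom is left per gene, and the spread was shared over genes. SE is the fold change over the root of F. Alternatives were other scaling, no filter, DESeq2 1.42.0, thinned cells, left-out pools, cells of other lineages left out, and narrower or nested cell sets. On simulated counts for the genotype comparison 85.1% of genes changed 2-fold were called over 14742 genes, and for CD48 70.2% over 12737. The simulation gave all genes 1 common spread, so these shares do not hold for genes with a larger spread.

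The members and all gene lists were chosen with earlier results of these data known. Named are all members, and of each list up to 4 called genes with the largest change and at least 5 CPM in 1 genotype, and per member the 2 most alike genes with a mean of at least 10 CPM. P-values measure only the spread between pools, which may be technical. Intervals are exact at 95% and cover counting error only, and 3 UMIs are the limit for a count of 0. Gene positions are from GENCODE.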

Additional observations from a re-analysis of the deposited data

Results flagged for a closer look

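In the barcodes of replicate 2 that failed the quality call, which no comparison used, Mt1 stood at 213.5 CPM (13528 UMIs), above the 12.5 CPM of WT and the 72.2 CPM of IkBKO cells that passed. These were 14441 barcodes with a median of 1969 UMIs. In replicate 1 the 1639 failing barcodes had a median of 8511 UMIs and held Mt1 at 128 CPM, between the 2 genotypes. The other 8 members were at 13.1 CPM or less in the failing barcodes of either library.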

How the results depend on the processing

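Over all genes 1964 differed by genotype, 3183 with no filter and 0 with no replicate block (1410 at an unadjusted p under 0.05, and 1564 called by DESeq2 with the block). With 1 pool left out, and so without the block, there were 25 to 136 calls. By CD48 2314 genes were called, 3604 with no filter, 3974 without Car1-rich cells and 1045 by DESeq2. By CD150 2219 were called, 719 by DESeq2 and 616 in the outer 10%. By CD48 within the Mecom gate 3 of the 4 members tested were lower and 1 higher, beside 1471 and 1565 of 10570 genes. Over all cells 7 were lower, beside 9.7% of genes. By CD150 within the Mecom gate 3 of the 5 members tested were higher, beside 702 of 10592 genes. By DESeq2 over all cells 3 were higher by CD150, beside 278 of 12668 genes. In edgeR 6 were, beside 7.23% of genes. The members at least 2-fold higher in Mecom cells of both libraries changed with the gate, from Ehd3, Plscr2 and Mt1 to Nupr1 at 3 Mecom UMIs. No share over all genes was counted for this. Without TMM 36.6% of the genotype calls were higher (53.5% with it), 34.6% by cycling (48.5%) and 26.04% by CD48 (46.6%), and the median of all genes moved to −0.16 for cycling and CD48.

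Signs turned for Clu by genotype in thinned cells (−0.067), in Mecom cells of exactly 1 gate (−0.0042) and by CD48 in the outer 10% (−0.66), for Jam2 in Pf4 cells of exactly 1 gate (0.25), for Aldh1a1 by cycling without replicate 1 (0.28, and −0.41 without replicate 2), and for Mt1 by CD48 within the Mecom gate (0.48) and without Car1-rich cells (0.42), and by CD150 without them (−0.25). None of these is a call over all cells, and the cause was not tested. The replicate block changed no member call by cycling. The CD48 and CD150 comparisons without a replicate were not run, since 1 library carried these antibodies. Members under 1 CPM rest on few UMIs.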
